A study of Mus musculus with 9 samples.

Results

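On mouse chromosome 7 a pair of protein kinase genes, *Sbk2* and *Sbk3*, lies next to the zinc-finger genes *Zfp579* and *Fiz1*. These 4 genes, out of 24571 gene symbols in the table of transcript levels, are described here across all 9 libraries. They were chosen by the levels of *Sbk3* and *Zfp579*, neighbours that were higher together in homozygous *Ctcf* mutant hearts, so that for these 2 genes the homozygous levels are a description and are given without a test. The libraries came from hearts of E18.5 mouse embryos, 3 of them wild-type, 3 heterozygous and 3 homozygous for the CTCF R567W allele, a substitution made by CRISPR/Cas9 editing in C57BL/6N mice. Each heart was collected in a tube of its own, and litters are not named for the libraries. Values are TPM, in which reads are corrected for transcript length and scaled to a common library total, so that levels can be compared between genes as far as the gene models hold, but the number of reads behind a value is unknown.

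CTCF binds DNA through its zinc fingers and, with cohesin, anchors chromatin loops and domain boundaries, and neighbouring genes can share such a domain. SBK proteins form a small family of serine/threonine kinases related to the first member, SBK1. *Sbk2* is known as a kinase gene enriched in the atrium, where its product bears on sarcomere integrity. *Fiz1* encodes a zinc-finger protein that was found as a binding partner of the receptor FLT3 and also binds NRL in the retina. *Zfp579* encodes a further protein of the C2H2 zinc-finger class.

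All 4 genes are transcribed from the minus strand. In GENCODE M21 coordinates (mm10) *Sbk2* occupies 4940512 to 4964406, *Sbk3* 4965260 to 4971168, *Zfp579* 4983483 to 4996158 and *Fiz1* 5007059 to 5014697. The start of *Sbk2* lies 853 bp beyond the end of *Sbk3*, *Sbk3* starts 12314 bp beyond the end of *Zfp579*, and *Zfp579* starts 10900 bp beyond the end of *Fiz1*, so that all 4 starts fall within 50291 bp. RefSeq draws *Sbk3* longer, from 4965247 to 4981041, into the interval towards *Zfp579*, and which gene models the authors counted is not given in the sources used here. A single transcript model of *Sbk2* reaches into *Ssc5d* on the opposite strand, an overlap of 4315 bp, and the 5′ end of *Fiz1* overlaps *Zfp524* on the opposite strand by 283 bp. *Sbk3* and *Zfp579* overlap no annotated gene. Of the 31-base words in their transcripts, none of those of *Sbk2* or *Sbk3* (a share of 0% each), 0.742% of those of *Zfp579* and 2.3% of those of *Fiz1* also occur in transcripts of other genes. For *Zfp579*, 3 of 6 annotated transcripts are noncoding, and the gene-level values do not separate them.

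The promoter sequences are shown so that the start sites of the 4 neighbours can be read side by side. Each runs 5′ to 3′ from 250 bases before to 50 bases after an annotated start (RefSeq, GRCm38.p6, minus strand). Every occurrence of the letters CCCTC, on either strand, is in capitals. CCCTC is the word after which CTCF, the CCCTC-binding factor, was named, and is far shorter than the full CTCF motif.

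Sbk2 (chr7:4964357-4964656): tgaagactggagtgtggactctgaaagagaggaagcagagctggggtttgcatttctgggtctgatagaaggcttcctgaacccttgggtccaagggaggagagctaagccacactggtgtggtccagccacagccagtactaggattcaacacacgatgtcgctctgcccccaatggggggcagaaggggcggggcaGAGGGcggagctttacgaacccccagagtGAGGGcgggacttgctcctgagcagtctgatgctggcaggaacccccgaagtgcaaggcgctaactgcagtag

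Sbk3 (chr7:4970912-4971211): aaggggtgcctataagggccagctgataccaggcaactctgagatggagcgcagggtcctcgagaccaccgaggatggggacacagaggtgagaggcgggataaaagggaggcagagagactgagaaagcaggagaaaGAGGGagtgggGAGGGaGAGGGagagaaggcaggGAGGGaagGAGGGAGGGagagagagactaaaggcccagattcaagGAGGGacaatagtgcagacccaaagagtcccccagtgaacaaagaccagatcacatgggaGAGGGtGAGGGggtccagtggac

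Zfp579 (chr7:4996052-4996351): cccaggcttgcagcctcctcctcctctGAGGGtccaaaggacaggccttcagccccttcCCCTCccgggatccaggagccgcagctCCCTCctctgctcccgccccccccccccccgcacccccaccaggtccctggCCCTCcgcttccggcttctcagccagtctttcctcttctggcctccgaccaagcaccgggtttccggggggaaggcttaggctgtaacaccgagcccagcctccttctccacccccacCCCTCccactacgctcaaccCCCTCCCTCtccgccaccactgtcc

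Fiz1 (chr7:5014679-5014978): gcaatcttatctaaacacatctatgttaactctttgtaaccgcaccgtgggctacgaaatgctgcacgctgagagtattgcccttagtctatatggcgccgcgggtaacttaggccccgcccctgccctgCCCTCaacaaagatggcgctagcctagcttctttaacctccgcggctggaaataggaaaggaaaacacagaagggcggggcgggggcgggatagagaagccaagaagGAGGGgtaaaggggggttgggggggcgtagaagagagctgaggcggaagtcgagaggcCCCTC

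The word CCCTC occurred 2 times in the *Sbk2* promoter, 9 times in that of *Sbk3*, 7 times in that of *Zfp579* and 3 times in that of *Fiz1*. Among 32851 promoters of the same length, 66% held it at least 1 time, 0.931% at least 7 times and 0.256% at least 9 times. The word was chosen for display after the levels were known. A longer pattern built on fixed bases of the CTCF core motif matched 0 times in each of the 4 windows on either strand, against 8.61% of all promoters with a match. The word GGGCGG, read by SP-type factors, was found 3 times at *Sbk2*, 0 times at *Sbk3*, 1 time at *Zfp579* and 4 times at *Fiz1*, against 35.7% of all promoters with at least 1. GC content was 58.7%, 58% and 69% for *Sbk2*, *Sbk3* and *Zfp579* and 56.7% for *Fiz1*, against a median of 52.7%. RefSeq gives *Fiz1* 2 further start sites, whose sequences are not printed. Their windows held CCCTC 4 and 4 times and GGGCGG 2 and 0 times, at a GC content of 60.7% and 48.3%. The counts for *Fiz1* above are those of the printed window. The window of *Sbk3* (4970912 to 4971211) lies inside the longer RefSeq span of that gene, which reaches 4981041. Its counts are therefore not those of the outermost RefSeq end. A match is a description of letters and not a bound site.

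*Sbk3* was lowest in wild-type hearts, higher in heterozygous and highest in homozygous ones. Wild-type libraries held 4.26, 4.34 and 4.62 TPM, heterozygous libraries 6.75, 7.68 and 7.91 TPM, and homozygous libraries 13.6, 16.9 and 9.38 TPM. The 3 genotypes did not overlap, and the spread widened from 0.189 TPM (SD, n = 3) in wild-type to 3.75 TPM (SD, n = 3) in homozygous hearts. Means by genotype were 4.41, 7.45 and 13.3 TPM, a homozygous mean 3.01 times and a heterozygous mean 1.69 times that of wild-type hearts. On the log2(TPM + 1) scale, the homozygous minus wild-type difference was 1.37 (SE 0.19), or 1.14 after subtracting the median change of all genes.

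*Zfp579* was the most abundant of the 4 genes in every library and was ordered in the same way. Its wild-type levels were 35.8, 30.5 and 36.8 TPM, its heterozygous levels 49.1, 50.2 and 52.5 TPM, and its homozygous levels 69.5, 94.2 and 73.5 TPM. Again no 2 genotypes overlapped. The means were 34.4 ± 3.36, 50.6 ± 1.75 and 79.1 ± 13.3 TPM (SD, n = 3 each), which put the homozygous mean at 2.30 times and the heterozygous mean at 1.47 times the wild-type mean. The homozygous minus wild-type difference was 1.17 (SE 0.13) on the log2 scale, or 0.94 relative to all genes.

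Of the 13682 genes tested, 230 (1.68%) had the 3 genotypes apart in this rising order and 29 (0.212%) in the falling order. Since *Sbk3* and *Zfp579* were chosen for their homozygous levels, their place among the 230 is not a result. The heterozygous difference was 46.9% of the homozygous difference for *Sbk3* and 46.9% for *Zfp579* on the log2 scale, and 34.2% and 36.3% on the TPM scale. Both genes were highest in homozygous replicate 2. In homozygous replicate 3, *Sbk3* was lower than in the other homozygous libraries while *Zfp579* was not the lowest.

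**Figure D1:**
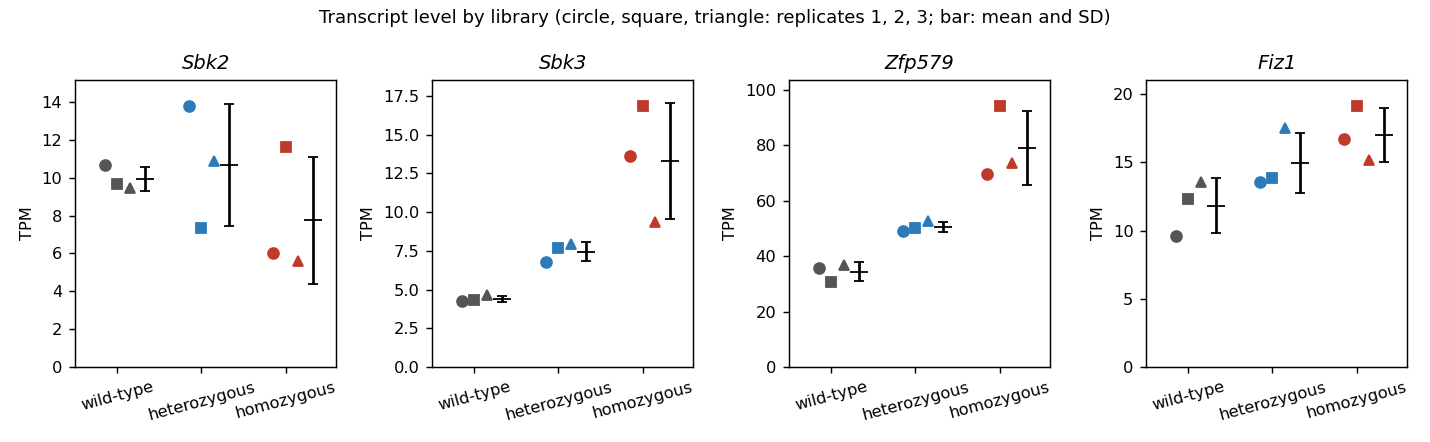
TPM (y axis, from 0) of the 4 genes in each of the 9 libraries, by genotype (x axis); marker shape gives the replicate number, and the bar beside each group gives the mean and SD of 3 libraries. *Sbk3* and *Zfp579* step upward from wild-type to heterozygous to homozygous without overlap, *Fiz1* differs less, and *Sbk2* overlaps between all genotypes.

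*Sbk2*, the immediate neighbour of *Sbk3*, had no such order. Wild-type libraries held 10.7, 9.64 and 9.46 TPM of it, heterozygous libraries 13.8, 7.35 and 10.9 TPM, and homozygous libraries 6.03, 11.6 and 5.61 TPM. A pair of homozygous libraries was below every wild-type library and the remaining one above, so the genotypes overlapped. The means were 9.92 ± 0.653, 10.7 ± 3.22 and 7.75 ± 3.36 TPM (SD, n = 3 each). The homozygous minus wild-type difference was −0.38 (95% interval −0.97 to 0.20, limma adjusted p 0.36), and −0.61 relative to all genes. Homozygous minus heterozygous it was −0.44 (95% interval −1.03 to 0.14, limma adjusted p 0.774), and from −0.74 to −0.25 without single libraries. The interval reaches both below and above 0 and does not show that the level was unaltered.

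*Fiz1* had higher homozygous than wild-type values without passing the threshold. Wild-type levels were 9.60, 12.3 and 13.6 TPM, heterozygous levels 13.5, 13.9 and 17.5 TPM, and homozygous levels 16.7, 19.2 and 15.2 TPM. Homozygous and wild-type libraries did not overlap, while the heterozygous libraries overlapped both. Means were 11.8 ± 2.02, 14.97 ± 2.20 and 17.0 ± 1.99 TPM (SD, n = 3 each), with a log2 difference of 0.50 (95% interval 0.14 to 0.85, limma adjusted p 0.126) between homozygous and wild-type hearts. Relative to the median of all genes it was 0.27. Over 22 alternatives its limma adjusted p ran from 0.0187 to 0.382. It was below 0.05 in 2 of them, without wild-type replicate 3 (0.0445, difference 0.60) and with libraries weighted by their spread (0.0187), where 2170 and 5068 of the 13682 genes were called. Without wild-type replicate 1 the difference was 0.37 (limma adjusted p 0.341), and it was 0.27 (0.22) with median-ratio scaling and 0.22 (0.382) with quantile normalization.

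In this comparison 0 of the 2 genes open to a test, *Sbk2* and *Fiz1*, were called by limma, and 1, *Fiz1*, had an unadjusted p under 0.05 (0.0107). Over all genes 0.336% were called (46 of 13682), 25% had an unadjusted p under 0.05, and 22.3% had higher homozygous values without overlap, as *Fiz1* did, while 2.38% had lower ones. Over all genes the median log2 change was itself 0.23, and the change of *Fiz1* against that median was smaller than its change on the deposited scale.

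The heterozygous hearts, which carry a single mutant allele, were compared with wild-type hearts as a contrast that the choice of genes did not name, although it shares the wild-type libraries with the homozygous one. *Sbk3* was higher by 0.64 (SE 0.19, 95% interval 0.22 to 1.06) and *Zfp579* by 0.55 (SE 0.13, 95% interval 0.25 to 0.84). The limma adjusted p was 0.672 for each, so neither passed, although the unadjusted p was 0.00629 and 0.00193. *Fiz1* differed by 0.32 (95% interval −0.04 to 0.68) and *Sbk2* by 0.06 (95% interval −0.53 to 0.64), with limma adjusted p of 0.672 and 0.943. The difference of *Fiz1* was 0.19 without wild-type replicate 1 and 0.21 without heterozygous replicate 3. By limma 0 of the 4 genes were called, against 0.0146% of all genes. An unadjusted limma p under 0.05 was found for 2 of them, *Sbk3* and *Zfp579*, against 6.87% of all genes. Both were chosen by homozygous levels that were high beside these same wild-type libraries. Their p-values and lack of overlap here are therefore not independent of that choice and are a description. Heterozygous values were above all wild-type values at *Sbk3* and *Zfp579*, which was the case for 12.8% of all genes, with 1.03% below. Relative to the median of all genes, 0.15 in this comparison, the differences were 0.49 for *Sbk3*, 0.40 for *Zfp579*, 0.17 for *Fiz1* and −0.09 for *Sbk2*.

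Homozygous against heterozygous hearts, *Sbk3* differed by 0.73 (SE 0.19) and *Zfp579* by 0.62 (SE 0.13), both given as a description, and both without overlap, as for 12% of all genes in the higher and 3.85% in the lower direction. *Fiz1* differed by 0.18 (95% interval −0.18 to 0.53, limma adjusted p 0.823), and by 0.094 to 0.29 without single libraries. Neither *Fiz1* nor *Sbk2* was called, where 0.0439% of all genes were (0.00731% higher and 0.0365% lower), and neither had an unadjusted p under 0.05, against 7.15% of all genes. The 3 comparisons share libraries and are therefore not independent of each other.

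Within a library, the ratio of *Sbk3* to *Sbk2* shows the change of order between the adjacent kinase genes. This ratio was 0.399, 0.450 and 0.488 in wild-type libraries, 0.489, 1.04 and 0.728 in heterozygous libraries and 2.26, 1.45 and 1.67 in homozygous libraries. *Sbk2* was thus the higher of the pair in each wild-type library and *Sbk3* in each homozygous library. The height of this ratio, and so where it crosses 1, depends on the length taken for *Sbk3*, which differs between annotations. The ratio is free of the scaling of a library, but *Sbk3* was chosen for its level, and the ratio is given without a test.

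The ratio of *Sbk3* to *Zfp579* varied less. It lay between 0.119 and 0.142 in wild-type libraries, between 0.137 and 0.153 in heterozygous libraries and between 0.128 and 0.196 in homozygous libraries, with overlap between genotypes. The ratio of *Fiz1* to *Zfp579* was 0.268, 0.403 and 0.369 in wild-type, 0.276, 0.277 and 0.333 in heterozygous and 0.241, 0.203 and 0.207 in homozygous libraries. The homozygous ratios lay below all others. *Zfp579*, the lower term of both ratios, was chosen for its homozygous level, so these ratios are a description and were not tested.

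**Figure D2:**
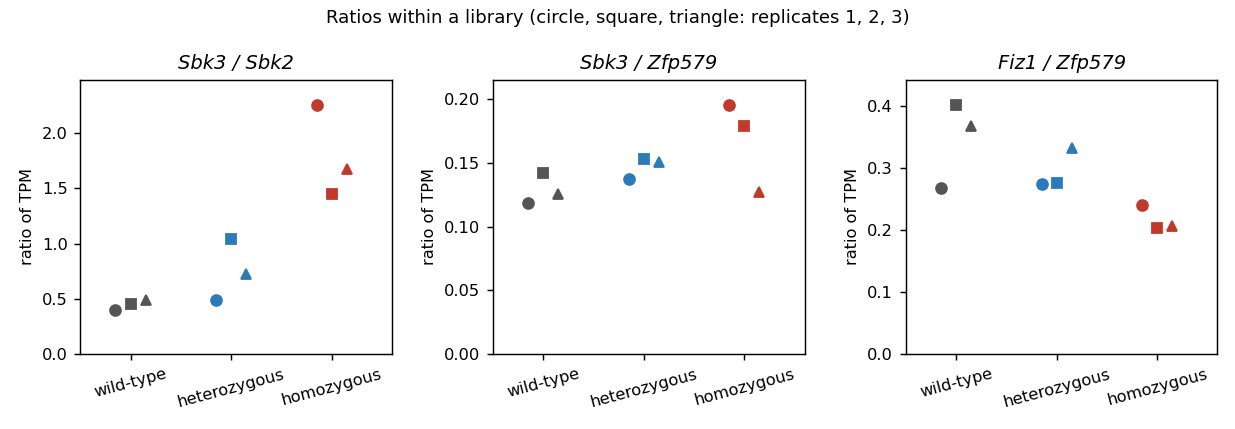
Ratio of TPM (y axis, from 0) for 3 pairs of the genes in each library, by genotype (x axis), with the replicate number as marker shape. The ratio of *Sbk3* to *Sbk2* is at most 0.488 in wild-type and at least 1.45 in homozygous libraries, whereas that of *Sbk3* to *Zfp579* overlaps between genotypes.

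Across the 9 libraries, log2 levels of *Sbk3* and *Zfp579* had a Pearson r of 0.96. After each genotype's mean was subtracted r was 0.60, again over 9 values that share their libraries and scaling. *Sbk3* and *Fiz1* had an r of 0.85, and 0.60 within genotypes. *Sbk2* had an r of −0.27 with *Sbk3* over all libraries and of 0.50 within genotypes. These are descriptions of few points, and the genes were chosen with the first of them in view.

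Genes elsewhere in the genome had patterns as close to *Sbk3* as that of *Zfp579*. Of 9948 genes averaging 5 TPM or more, 182 had an r of at least 0.9 with *Sbk3*, 142 with *Zfp579*, 625 with *Fiz1* and 2 with *Sbk2*. Those most like *Sbk3* over the 9 libraries were *Prdx6*, a peroxiredoxin gene (r 0.98), *Gm7694* (0.97), *Nprl2*, which encodes a GATOR1 subunit that restrains mTORC1 (0.97), the serpin gene *Serpinb9* (0.97) and *Kptn* (0.97). *Serpinb9* ranged over 3.13 to 4.43 TPM (wild-type), 8.38 to 9.98 TPM (heterozygous) and 20.5 to 27.6 TPM (homozygous). *Prdx6* differed far less, with 65.6 to 71.8 TPM (wild-type) against 79.5 to 92.9 TPM (homozygous). Those most like *Zfp579* were *Slc37a3* (r 0.98), *Edc4*, whose product takes part in mRNA decapping (0.98), *Gm7694* (0.98), *Rsbn1* (0.97) and *Mfng*, a glycosyltransferase gene of the Notch pathway (0.97). *Mfng* ranged over 5.11 to 6.34 TPM (wild-type), 6.77 to 9.01 TPM (heterozygous) and 9.95 to 14.7 TPM (homozygous). The measure follows the shape over the libraries and not the size of a change.

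The remaining genes of the region were examined in the same way. Within 500 kb of the starts of the 4 genes GENCODE lists 66 neighbours, of which 40 stood in the table under the same symbol and 26 averaged 1 TPM or more. Between homozygous and wild-type hearts limma called 0 of the 26, while 6 had an unadjusted p under 0.05 and 6 (23.1%) had higher homozygous values without overlap, against 22.3% of all genes. Their median log2 change was 0.07, which is −0.16 relative to all genes, and 8 of 26 lay above the median of all genes. With windows of 250 kb and 1 Mb their median was 0.18, or −0.05 relative to all genes, so its distance from the median of all genes depended on the window.

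*Zfp524*, which starts inside the 5′ end of *Fiz1* and runs the opposite way, had wild-type levels of 5.49, 6.63 and 7.87 TPM and homozygous levels of 6.89, 10.4 and 5.23 TPM. Its log2 change was 0.12 (SE 0.23, limma adjusted p 0.751). Of its 31-base words 48.8% also occur in transcripts of other genes, mainly *Gm44973* on the same strand.

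Beyond *Fiz1* come further zinc-finger genes. *Zfp865* had wild-type levels of 8.48, 8.72 and 13.6 TPM and homozygous levels of 13.7, 13.8 and 15.7 TPM, a change of 0.48 (limma adjusted p 0.15). *Zfp784* had means of 2.64 and 4.40 TPM, a change of 0.59 (adjusted p 0.151 by limma), but 94.8% of its words are shared, mainly with *Zfp865* on the opposite strand, so its level is uncertain. *Zfp580* had means of 8.26 and 8.58 TPM, a change of 0.04. *Gm45133*, the splicing factor gene *U2af2* and the endocytic adaptor gene *Epn1* had changes of 0.18, 0.24 and −0.04. Words were also shared with other genes by *Gm45133* (46%), *Zfp865* (27.8%) and *U2af2* (21.4%), so their levels carry the same limit to a lesser degree. *Zfp580* and *Epn1* shared 0%.

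On the side of *Sbk2*, *Ssc5d*, which overlaps it, had means of 3.47 and 3.95 TPM (log2 change 0.08). *Nat14* went from a mean of 3.24 to 4.94 TPM (0.47, limma adjusted p 0.157), and *Zfp628*, *Isoc2a* and *Isoc2b* had changes of 0.20, −0.02 and 0.55. None of these genes within 100 kb was called. Of the 12 tested there, 3 had higher homozygous values without overlap (25%, against 22.3% of all genes), and their median change was −0.04 relative to all genes.

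The largest positive change among neighbours averaging 5 TPM or more was that of *Cox6b2*, a gene for a cytochrome c oxidase subunit known from testis, whose start lies 211312 bp from that of *Sbk2*. Wild-type libraries held 15.8, 17.3 and 13.2 TPM of it, heterozygous libraries 24.3, 24.1 and 21.5 TPM, and homozygous libraries 23.5, 36.2 and 30.6 TPM. Mutant libraries were above all wild-type libraries, and heterozygous and homozygous ones overlapped. The homozygous change was 0.91 (SE 0.17, limma adjusted p 0.0592). *Rpl28* and *Ube2s*, which lie between *Cox6b2* and the kinases, had changes of 0.21 and −0.09 (limma adjusted p 0.191 and 0.566). After *Cox6b2* and *Zfp865* came *Brsk1* (0.32), and the lowest were *Ube2s*, *Ppp1r12c* (−0.05) and *Tnnt1* (−0.05). The cardiac troponin I gene *Tnni3*, a main heart gene of the region that was looked up after the others, stood at 2644 ± 218, 2690 ± 115 and 2603 ± 425 TPM (SD, n = 3 each). *Rasl2-9*, also chosen after its values were seen, ranged from 1.0 to 1.85 TPM in wild-type and from 1.43 to 2.06 TPM in heterozygous libraries. It was listed at 0, 0 and 0.19 TPM in homozygous libraries. Its homozygous change of −1.13 (SE 0.26, limma adjusted p 0.0929) was the largest in size among the 26 tested neighbours. Its mean over the 9 libraries, 1.05 TPM, is close to the minimum for testing.

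**Figure D3:**
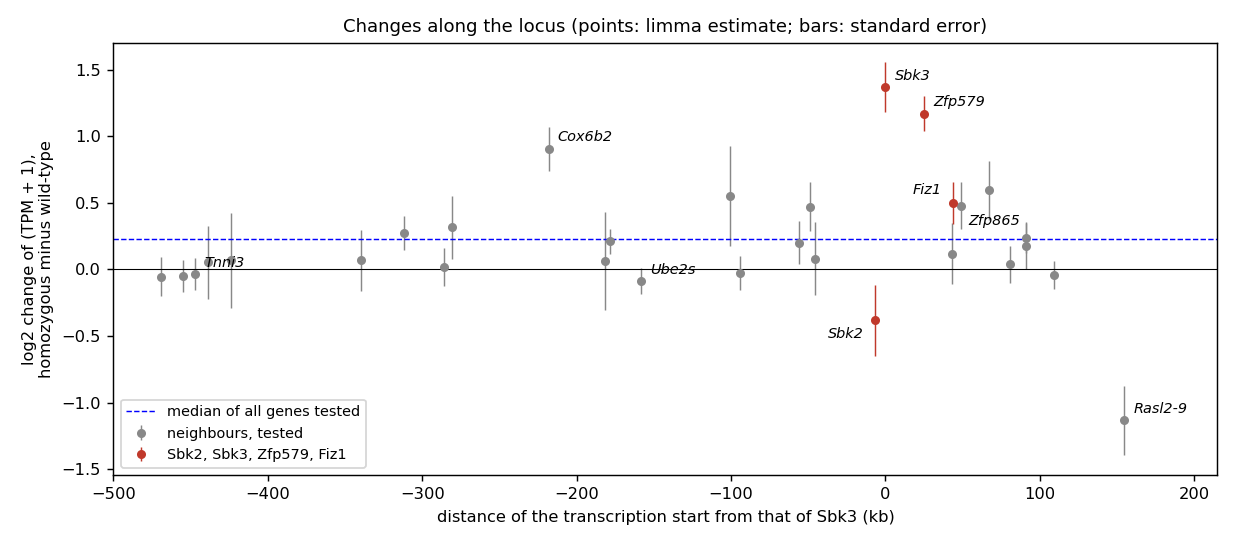
Homozygous minus wild-type log2 change of (TPM + 1) (y axis) of the 4 genes and 26 tested neighbours against the distance in kb of each start from that of *Sbk3* (x axis); bars are standard errors and the dashed line is the median of all genes, 0.23. *Sbk3* and *Zfp579*, which were chosen for their homozygous levels, are the highest points. *Sbk2* lies on one side at −0.38 and *Fiz1* on the other at 0.50.

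The third family member, *Sbk1*, lies elsewhere on chromosome 7 (126272619 to 126295016). Its wild-type levels were 11.1, 12.6 and 17.0 TPM, its heterozygous levels 15.1, 15.5 and 16.1 TPM, and its homozygous levels 16.6, 19.2 and 14.1 TPM. Its change of 0.28 (95% interval −0.08 to 0.65, limma adjusted p 0.289) was 0.05 relative to all genes. In order of mean level over the 9 libraries, *Zfp579* (54.7 TPM) led *Sbk1* (15.3 TPM), *Fiz1* (14.6 TPM), *Sbk2* (9.45 TPM) and *Sbk3* (8.38 TPM). *Sbk1* and *Fiz1* overlapped within each genotype, and *Sbk2* and *Sbk3* exchanged places between wild-type and homozygous hearts. *Ctcf* itself (chromosome 8) had means of 30.1, 35.2 and 43.5 TPM, with a homozygous change of 0.52 (limma adjusted p 0.107), and since the allele is a substitution its level does not check the genotypes.

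Other kinases of striated muscle served as context for the SBK family. Of 13 such genes, limma called 0 in any of the 3 comparisons, and their median homozygous change was −0.06 relative to all genes. The most abundant were *Mylk3*, the cardiac myosin light chain kinase gene, with means of 176, 193 and 206 TPM, and *Prkaca*, a catalytic subunit of protein kinase A, with 153, 164 and 166 TPM. Of 3 genes for partners of FIZ1, *Flt3* and *Nrl* had at most 0.30 TPM in any library, and *Crx* was not in the table used here.

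Since *Sbk2* is enriched in atria, markers of the chambers were read in the same libraries. The summed level of 16 atrial genes was 5752 TPM in homozygous replicate 3 and 9523 to 13233 TPM in the other 8, and that of 12 ventricular genes was 17902 TPM in homozygous replicate 3 and 19643 to 23294 TPM elsewhere. The cardiomyocyte genes summed to 16255 TPM in that library and 19067 to 23923 TPM in the others, so heart muscle markers were abundant throughout. In homozygous replicates 1, 2 and 3 the atrial sums were 13233, 11564.5 and 5752 TPM. *Sbk2* stood at 6.03, 11.6 and 5.61 TPM in these libraries, and *Sbk3* at 13.6, 16.9 and 9.38 TPM. The atrial genes had a median homozygous change of −0.01 relative to all genes, with 0 of 16 called by limma, and the ventricular genes one of −0.18, with 0 of 12 called. *Myl7* and *Nppa* were the most abundant of the atrial list, at homozygous changes of 0.03 and −0.37, and *Myl2* and *Myl3* of the ventricular list, at −0.27 and −0.12. Members of each list went both ways. The ends of the lists were looked up afterwards. Atrial changes ran from −0.56 (*Bmp10*) to 0.97 (*Gja5*), and ventricular changes from −0.63 (*Kcne1*) to 0.47 (*Hey2*). In whole hearts, fewer cells of a type and less RNA per cell cannot be told apart. The part of chamber content in the levels of *Sbk2* and *Sbk3* was not tested.

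Transcripts of other organs stood out in 3 libraries. Homozygous replicate 3 had a sum of 691 TPM over 15 genes of thymocytes, against 2.33 to 5.90 TPM elsewhere. For 12 genes of airway and lung, wild-type replicate 1 had a sum of 2632 TPM, heterozygous replicate 1 one of 1116 TPM and the others 8.21 to 58.9 TPM. For 15 genes of liver, heterozygous replicate 1 had a sum of 4167 TPM and the others 30.9 to 173.7 TPM. Without these 3 libraries the homozygous minus wild-type difference was 1.56 for *Sbk3*, 1.25 for *Zfp579*, 0.44 for *Fiz1* and −0.16 for *Sbk2*, the last against −0.38 with all libraries. The part of these transcripts in the levels was not tested otherwise. The sum of 10 erythroid genes ran from 2854 TPM in wild-type replicate 3 to 15549 TPM in heterozygous replicate 1. *Xist*, transcribed from the inactive X chromosome of females, was at 87.8 to 146 TPM in wild-type replicate 1, the 3 heterozygous libraries and homozygous replicate 1, and did not exceed 0.05 TPM in the remaining 4, so the sexes were unevenly spread over the genotypes. With *Xist* presence in the model the heterozygous difference was 0.63 for *Sbk3* and 0.60 for *Zfp579*, while the homozygous minus wild-type estimates could not move, since both groups held 1 library with *Xist* and 2 without.

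**Figure D4:**
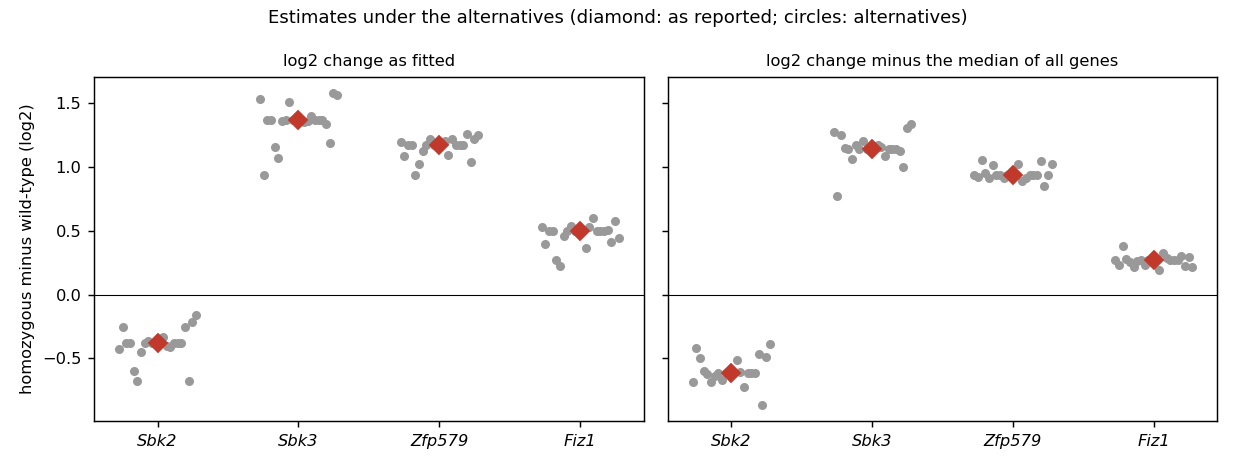
Homozygous minus wild-type log2 change (y axis) of the 4 genes under the setting reported (diamonds) and 22 alternatives (circles), as fitted on the left and after subtracting the median of all genes on the right. The points of *Sbk3*, *Zfp579* and *Fiz1* lie above 0 and those of *Sbk2* below 0 in each of these settings and on both scales. *Sbk3* and *Zfp579* were chosen for their homozygous levels.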

How the data were processed

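RNA from whole embryonic hearts had been captured by poly-A selection. According to the labels and the study's methods, the authors trimmed reads with Trim Galore, aligned them with STAR to mm10 and quantified genes with RSEM; which annotation and strand setting they used is not given in the sources used here. The deposited values are TPM, estimated counts divided by effective length and by the library's total, so depth and counting error are unknown. The 26 symbols turned into dates (at most 0.0921% of a library) were left out.

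The 13682 genes averaging 1 TPM or more, the 4 members among them, were taken as log2(TPM + 1). In R v4.3.3, limma v3.58.1 fitted a mean per genotype over the 9 libraries together, with a trend of variance on level. Two-sided p-values received Benjamini-Hochberg adjustment over all genes tested, and a gene was called below an adjusted p of 0.05. A fold change on this scale understates that of low genes. The p-values rest on 3 libraries per group. Each sets a difference against a spread per gene that is pooled over the 9 libraries and moderated by the trend. That spread is shared by all genotypes, also where their own spreads differ, as at *Sbk3* (SD 0.189 TPM in wild-type and 3.75 TPM in homozygous hearts). DESeq2, which the study used, needs counts and was not run.

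Coordinates came from GENCODE M21 and promoters from RefSeq (all 4 genes matched). The members, lists, motifs and naming rule were chosen with earlier results of these data known. Named neighbours were all tested genes within 100 kb, and within 500 kb the 3 highest and 3 lowest with a mean of at least 5 TPM and any called gene; the 5 genes most like *Sbk3* and *Zfp579* were added, and of each list its called genes and its 2 most abundant ones. The procedure was run on simulated log2 values with independent normal noise, the same spread in every library and no library-wide shift. That run does not check it for libraries as uneven as those described here.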

Additional observations from a re-analysis of the deposited data

How the results depend on the processing

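Each estimate was recomputed under 22 alternatives. For *Sbk3* the homozygous minus wild-type difference ran from 0.94 to 1.58 and for *Zfp579* from 0.93 to 1.26, the lowest with a pseudocount of 5 (*Sbk3*, 0.94), with quantile normalization (*Sbk3*, 1.07) and with median-ratio scaling (*Zfp579*, 0.93). *Fiz1* passed with arrayWeights (0.54) and without wild-type replicate 3; without single libraries it ran from 0.37 to 0.60. *Sbk2* never passed; its homozygous minus wild-type difference ran from −0.68 to −0.16, with −0.68 without homozygous replicate 2 and −0.21 without homozygous replicate 3. Its heterozygous difference turned negative with median-ratio scaling (−0.093), quantile normalization (−0.12), without heterozygous replicate 1 (−0.13, within a range up to 0.28 without single libraries) and without the 3 libraries with other-organ transcripts (−0.084). Its homozygous minus heterozygous difference was −0.25 without heterozygous replicate 1, −0.66 without heterozygous replicate 2, −0.74 and −0.27 without homozygous replicates 2 and 3, and −0.080 without the 3 libraries. The heterozygous minus wild-type difference of *Fiz1* was 0.17 and 0.14 with median-ratio scaling and quantile normalization, and its homozygous minus heterozygous difference was 0.10 and 0.083 with these, 0.038 with *Xist* (−0.0033 relative to all genes), 0.11 and 0.29 without heterozygous replicates 1 and 3, and 0.094 without homozygous replicate 2. The heterozygous limma adjusted p of *Sbk3* and *Zfp579* was never below 0.0888. It remains a description, since both genes were chosen by homozygous levels that were high beside the same wild-type libraries.

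Genes called in homozygous against wild-type hearts numbered 46 (56.5% higher) as reported, 22 without a filter, 229 after median-ratio scaling (18.3% higher), 71 after quantile normalization (16.9% higher), 77 after rescaling without mitochondrial and haemoglobin genes, 5068 with arrayWeights (94.9% higher), 11 with only 2 groups, 11 without the 3 libraries with other-organ transcripts, and 13 to 2170 without single libraries, the last without wild-type replicate 3 (93.5% higher), with 247 without homozygous replicate 3 (88.3% higher). In homozygous against heterozygous hearts they numbered 6 as reported, 2 with a pseudocount of 5 or no filter, 15 and 11 with the same scalings, 10 after rescaling, 43 with arrayWeights, 0 with *Xist* or with only 2 groups, and 1 to 6 without single libraries. In heterozygous against wild-type hearts they numbered 2 as reported, 1 with a pseudocount of 0.1, a minimum of 5 TPM or *Xist*, 5 and 4 with the same scalings, 4 with arrayWeights, 0 with only 2 groups, 5 without the other-organ libraries, and 1 to 6 without single libraries. Neighbours called numbered 0 as reported, 1 with a pseudocount of 0.1 or a minimum of 5 TPM (*Cox6b2*), 1 with median-ratio scaling or no trend (*Rasl2-9*), 7 with arrayWeights and 0 to 5 without single libraries. The median neighbour change was −0.079 with median-ratio scaling, −0.13 with quantile normalization, 0.21 with arrayWeights and 0.075 to 0.21 without single libraries, and 0.18 with windows of 250 kb and 1 Mb. The causes were not tested.

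Libraries share replicate numbers across genotypes. Deviations of same-numbered libraries correlated between −0.03 and 0.36, the highest for wild-type with heterozygous replicate 1 (0.36) and replicate 3 (0.30). Differently numbered libraries were not compared, so these values do not settle whether the numbers mark pairs. The main fit did not take them as pairs. With a replicate block 17, 1 and 1 genes were called in the 3 comparisons in the order above. *Sbk2* and *Fiz1* stayed uncalled. *Sbk3* and *Zfp579* were also uncalled in heterozygous against wild-type hearts, which for these chosen genes is a description. The homozygous differences of *Sbk3* and *Zfp579* were not tested. TPM keeps no depth, so the counting error of low genes is unknown. Their precision was estimated only from the spread over the 9 libraries, 3 a group, and its trend over all genes tested.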
